A study of Mus musculus with 21 samples.

Results

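The Toll-like receptors are a family of innate immune receptors that recognise conserved microbial and nucleic acid structures. *Tlr1*, *Tlr2*, *Tlr4* and *Tlr6* encode receptors of the cell surface, and *Tlr3*, *Tlr7*, *Tlr8* and *Tlr9* encode receptors that sense nucleic acids inside endosomes. These 8 genes are described here, out of 19505 genes measured. They were taken by gene symbol, and each had 1 row in the table, so that the rule of keeping the row with the highest mean over the arrays discarded nothing. The family was taken up because *Tlr7* was already known to be higher after AML-conditioned medium in these same arrays, so the members were chosen by the measured difference of *Tlr7* between AML-conditioned and fresh medium. The values of *Tlr7* in AML-conditioned medium are therefore a description, with their spread between arrays, and nothing is read from a call of *Tlr7* there.

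RNA was measured on 21 Affymetrix arrays of mouse CD8+ T cells in 3 groups of 7 biological replicates. Beads carrying CD3 and CD28 antibodies activated T cells of wildtype spleens, which spent 48 h in supernatant of WEHI 3B cells, in supernatant of dendritic cells grown from bone marrow (DC), or in fresh medium, and CD8+ cells were separated again before RNA extraction. WEHI 3B is a single mouse leukaemia cell line that stands here for acute myeloid leukaemia (AML), and the bead activation was common to all 3 groups. The sex, age and strain of the mice, and whether spleens were pooled, are not given in the sources used here. The description field of the labels differs from the rest and speaks of reticular cells. The T cell marker genes *Cd8a*, *Cd8b1* and *Cd3e* had log2 levels between 11.54 and 11.99 on every array, and none of the 5 listed CD8 T cell markers passed the test in any comparison.

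Toll-like receptors signal through a small set of adaptor proteins. Most of them use MyD88, which recruits IRAK kinases and the ubiquitin ligase TRAF6 and leads to NF-kB activation, while TLR3 uses TRIF (encoded by *Ticam1*) and TLR4 uses both. TLR2 forms pairs with TLR1 or TLR6. The endosomal receptors depend on the chaperone UNC93B1 to reach endosomes, where cathepsins and legumain cleave their ectodomains. The family is best known in macrophages, dendritic cells and B cells, but T cells also express some members, and TLR2 and TLR7 have been described as receptors that can act within T cells.

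Values are log2 levels, so that a difference of 1 is a doubling in fold terms. The level of a gene on these arrays depends on its probes, and levels are compared between media and never between genes. RMA, the method behind the values, gives no call of detection, and *Tlr3*, *Tlr4* and *Tlr8* had mean levels below the 25th percentile of all genes (a log2 level of 3.67).

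*Tlr7*, the receptor for single-stranded RNA, was the member that differed by medium most widely. Its lowest, median and highest levels were 8.56, 9.02 and 9.60 in AML-conditioned medium, 7.27, 7.68 and 7.78 in DC-conditioned medium, and 7.34, 7.78 and 7.96 in fresh medium. All 7 AML arrays lay above all 14 other arrays, while the DC and fresh arrays overlapped. The mean was 9.08 ± 0.39 after AML-conditioned, 7.60 ± 0.21 after DC-conditioned and 7.70 ± 0.26 in fresh medium (SD, n = 7 each). AML-conditioned medium thus exceeded fresh medium by 1.38 on the log2 scale (SE 0.14), which is 2.60-fold, and DC-conditioned medium by 1.49 (SE 0.14), which is 2.80-fold. These 2 comparisons share the AML arrays. Of all genes, 5 had a larger rise from fresh to AML-conditioned medium, a count that leaves out falls. DC-conditioned and fresh medium differed in *Tlr7* by -0.11 (95% confidence interval -0.40 to 0.19, adjusted p = 0.951), which did not pass the test.

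**Figure D1:**
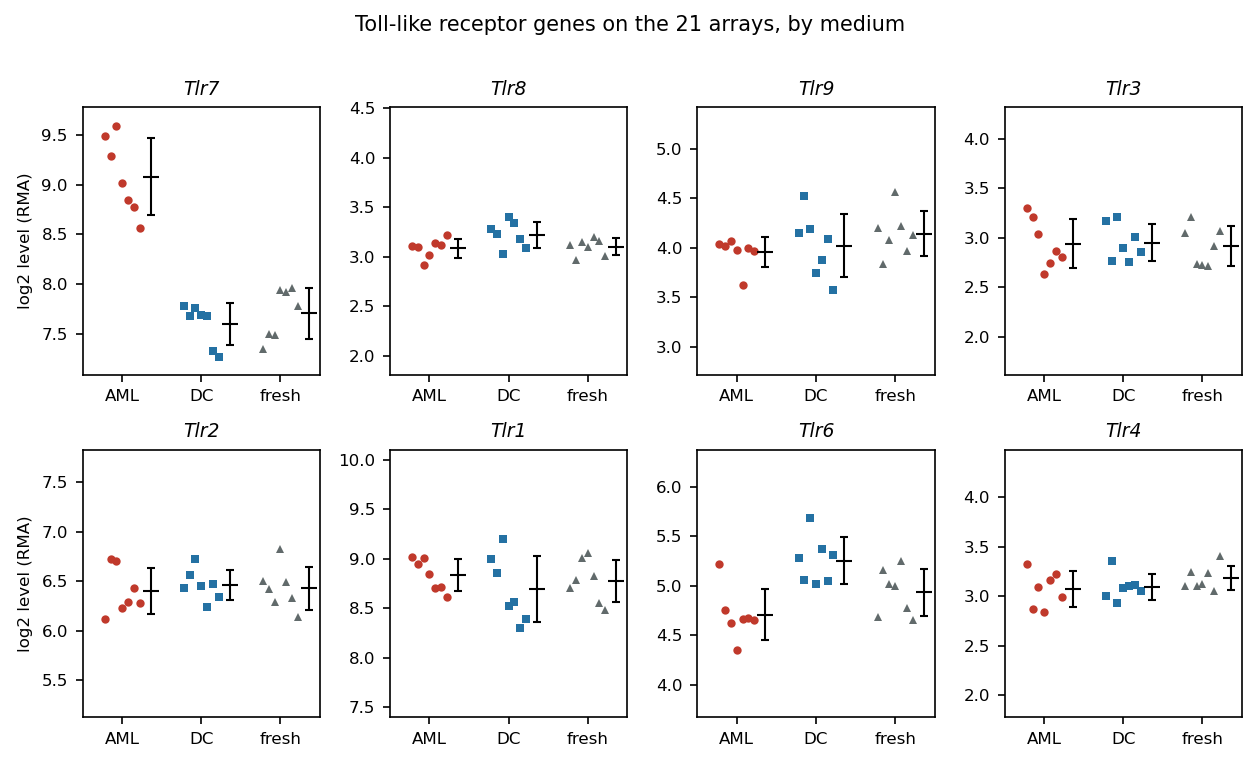
Log2 level of each Toll-like receptor gene on every array in AML-conditioned, DC-conditioned and fresh medium (7 arrays each, points in the order of replicate number), with the mean and SD as bars; all panels span the same number of log2 units. The *Tlr7* arrays of AML-conditioned medium, at 8.56 to 9.60, lie above all others, and the groups of the other genes overlap.

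The other endosomal receptors did not pass the test in any comparison. *Tlr8* encodes a close relative of TLR7 and is its neighbouring protein-coding gene in the mouse assembly GRCm38.p6. Its lowest, median and highest levels were 2.92, 3.11 and 3.22 in AML-conditioned, 3.03, 3.23 and 3.40 in DC-conditioned and 2.97, 3.12 and 3.20 in fresh medium. The 3 groups overlapped, and AML-conditioned minus fresh medium was -0.01 (95% confidence interval -0.15 to 0.13, adjusted p = 0.964). *Tlr9*, the receptor for DNA with unmethylated CpG motifs, had 3.62, 4.00 and 4.07 in AML-conditioned, 3.57, 4.09 and 4.53 in DC-conditioned and 3.83, 4.13 and 4.56 in fresh medium. These ranges overlapped too, with a difference of -0.19 between AML-conditioned and fresh medium (95% confidence interval -0.44 to 0.06, adjusted p = 0.484). *Tlr3*, the receptor for double-stranded RNA, ran from 2.63 to 3.30 in AML-conditioned, from 2.75 to 3.21 in DC-conditioned and from 2.71 to 3.21 in fresh medium, and AML-conditioned minus fresh medium was 0.02 (95% confidence interval -0.20 to 0.25, adjusted p = 0.951).

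Among the receptors of the cell surface, *Tlr6* was lower after AML-conditioned than after DC-conditioned medium. *Tlr6* encodes the partner of TLR2 for diacylated lipopeptides. Its lowest, median and highest levels were 4.35, 4.66 and 5.22 in AML-conditioned, 5.02, 5.28 and 5.69 in DC-conditioned and 4.65, 5.00 and 5.25 in fresh medium. Of the 7 AML arrays, replicate 1, at 5.22, was the only one that reached into the range of the DC arrays. The mean was 4.71 ± 0.26 after AML-conditioned and 5.25 ± 0.24 after DC-conditioned medium, with fresh medium between them at 4.93 ± 0.23 (SD, n = 7 each). AML-conditioned minus DC-conditioned medium was -0.55 (SE 0.12, adjusted p = 0.0156), or 0.685-fold. The neighbours in this order did not pass the test, as AML-conditioned minus fresh medium was -0.23 (95% confidence interval -0.48 to 0.02, adjusted p = 0.377) and DC-conditioned minus fresh medium 0.32 (95% confidence interval 0.07 to 0.57, adjusted p = 0.706). Without AML replicates 4 and 5 the difference from DC-conditioned medium was -0.47 and did not pass (adjusted p = 0.122).

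*Tlr1*, *Tlr2* and *Tlr4* overlapped between all media and did not pass in any comparison. *Tlr1*, the other partner of TLR2 and the neighbouring protein-coding gene of *Tlr6*, had lowest, median and highest levels of 8.61, 8.85 and 9.02 in AML-conditioned, 8.30, 8.56 and 9.19 in DC-conditioned and 8.48, 8.79 and 9.05 in fresh medium. Its differences were 0.06 for AML-conditioned minus fresh medium (95% confidence interval -0.19 to 0.32) and 0.15 for AML-conditioned minus DC-conditioned medium (95% confidence interval -0.11 to 0.40). *Tlr2*, the shared partner in receptors for bacterial lipoproteins, had 6.12, 6.29 and 6.72 in AML-conditioned, 6.24, 6.45 and 6.73 in DC-conditioned and 6.14, 6.42 and 6.83 in fresh medium. *Tlr2* differed by -0.03 between AML-conditioned and fresh medium (95% confidence interval -0.25 to 0.18). *Tlr4*, the receptor for lipopolysaccharide, ran from 2.85 to 3.33 in AML-conditioned, from 2.94 to 3.36 in DC-conditioned and from 3.06 to 3.41 in fresh medium, with a difference of -0.11 between AML-conditioned and fresh medium (95% confidence interval -0.28 to 0.06).

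Set side by side for AML-conditioned against fresh medium, the other 7 receptors had differences from -0.23 to 0.06 and 95% confidence limits between -0.48 and 0.32, and *Tlr7* had a difference of 1.38. Their adjusted p ran from 0.377 to 0.964, with 0 of 7 called by limma and 0 at an unadjusted p under 0.05. Over all genes 2.77% were called (1.3% higher and 1.48% lower), and the arrays of 0.795% did not overlap. An unadjusted p under 0.05 was found for 3100 of all 19505 genes. As *Tlr7* brought the family under study, a count of members that includes it is not set against these shares. Against DC-conditioned medium the other 7 receptors had differences from -0.55 to 0.15, and *Tlr7* had a difference of 1.49. There *Tlr6* was the 1 receptor called of these 7, where 2.39% of all genes were called (1.13% higher and 1.26% lower). The arrays of all 7 overlapped, and those of 0.815% of all genes did not. In DC-conditioned against fresh medium limma called 0 of 8 members and 0.0% of all genes, with *Tlr6* as the 1 member at an unadjusted p under 0.05. In this comparison 1251 of all 19505 genes had such a p. No member's arrays were separated there, as were those of 0.113% of all genes.

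**Figure D2:**
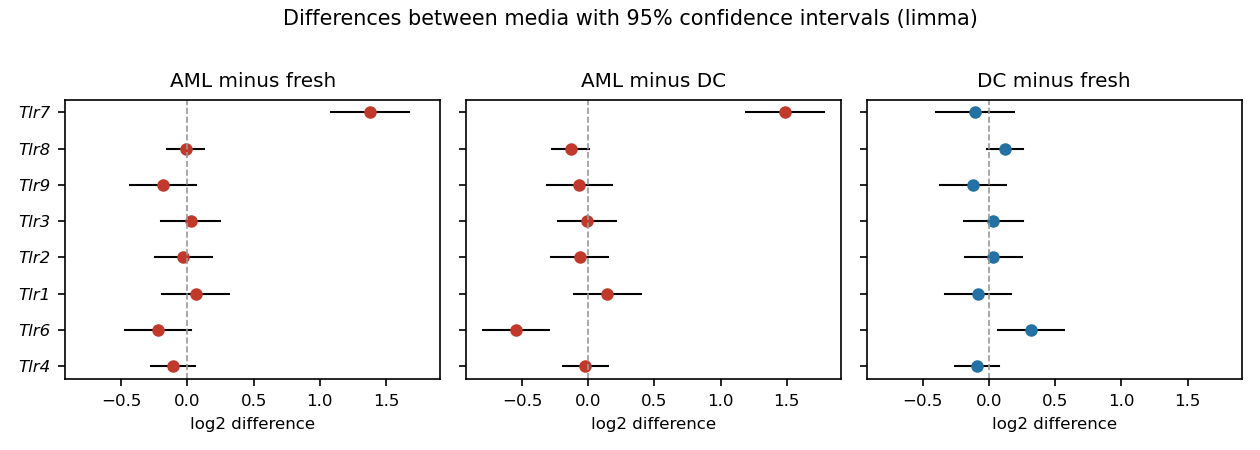
Log2 difference of each Toll-like receptor gene (points) with its 95% confidence interval from limma (lines) for AML-conditioned minus fresh, AML-conditioned minus DC-conditioned and DC-conditioned minus fresh medium; the dashed line marks no difference. *Tlr7* stands at 1.38 and 1.49 in the comparisons with AML-conditioned medium and at -0.11 in the third, and *Tlr6* at -0.55 for AML-conditioned minus DC-conditioned medium.

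The size of the *Tlr7* difference varied among arrays. Replicates 1 to 3 of AML-conditioned medium were at 9.29 to 9.60, against 7.34 to 7.49 in replicates 1 to 3 of fresh medium, a difference in means of 2.02. Replicates 4 to 7 were at 8.56 to 9.02 in AML-conditioned medium, against 7.78 to 7.96 in fresh medium, a difference of 0.90. In both sets every AML array lay above every fresh and every DC array. Against DC-conditioned medium *Tlr7* was higher by 1.73 in the first of these sets and by 1.31 in the other. AML replicates 4 and 5 were left out together in an alternative chosen from earlier results on all genes, and without them *Tlr7* differed from fresh medium by 1.44. AML replicates 6 and 7, at 8.78 and 8.56, were the lowest of their group and still higher than the highest DC array at 7.78 and the highest fresh array at 7.96. The labels do not say whether replicates of 1 number share a mouse or a day. *Tlr6* was lower after AML-conditioned than after DC-conditioned medium in both sets, by 0.48 in replicates 1 to 3 (adjusted p = 0.314) and by 0.60 in replicates 4 to 7 (adjusted p = 0.0756), and passed the test in neither set alone.

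**Figure D3:**
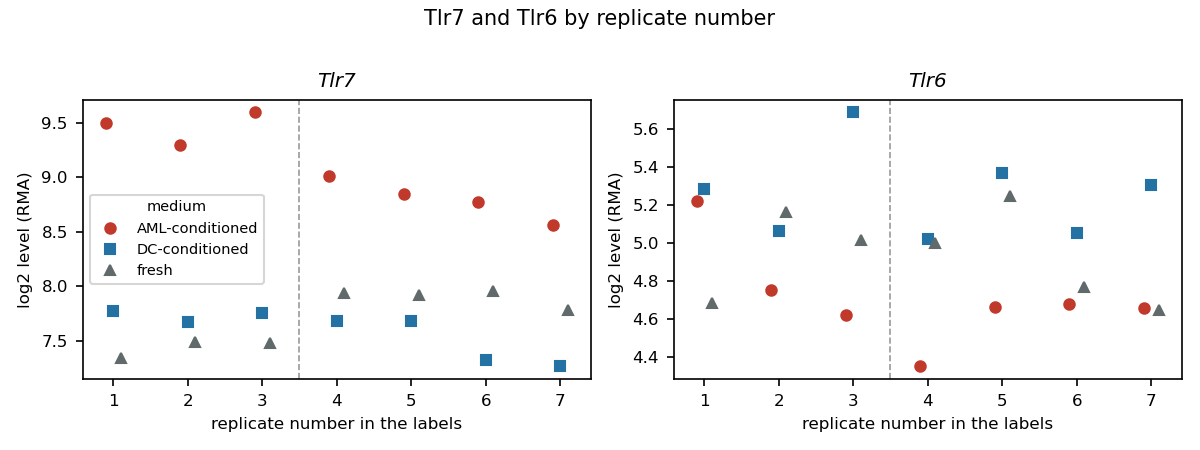
Log2 level of *Tlr7* (left) and *Tlr6* (right) against the replicate number in the labels, in AML-conditioned (circles), DC-conditioned (squares) and fresh medium (triangles); the dashed line divides replicates 1 to 3 from 4 to 7. *Tlr7* in AML-conditioned medium lies above both other media at every number, and fresh medium is below DC-conditioned medium in replicates 1 to 3 and above it in replicates 4 to 7.

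*Tlr1* and *Tlr9* also differed between the replicate sets in DC-conditioned and AML-conditioned medium, while the sets overlapped in fresh medium. In DC-conditioned medium *Tlr1* ran from 8.86 to 9.19 in replicates 1 to 3 and from 8.30 to 8.56 in replicates 4 to 7, and in AML-conditioned medium from 8.94 to 9.02 and from 8.61 to 8.85. In replicates 4 to 7 alone the AML arrays of *Tlr1* lay above the DC arrays, by 0.28, while in replicates 1 to 3 the difference was -0.03. *Tlr9* ran from 4.15 to 4.53 in replicates 1 to 3 of DC-conditioned medium and from 3.57 to 4.09 in replicates 4 to 7. As deviations from the group means over the 21 arrays, *Tlr1* and *Tlr9* had a Pearson r of 0.56, *Tlr1* and *Tlr6* of 0.53 and *Tlr1* and *Tlr7* of 0.51. The neighbouring genes *Tlr7* and *Tlr8* had an r of -0.11. These are descriptions of genes measured on the same arrays, in which the replicate sets are shared by all pairs.

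Of the 67 listed genes of Toll-like receptor signalling, 59 were measured. In AML-conditioned against fresh medium 6 of them rose, 2 fell and 51 did not pass, with a median difference of 0.01, against -0.01 over all genes. Of all genes 1.3% rose and 1.48% fell in this comparison. Among 8 chaperone and endosomal processing genes, *Ctss* rose and *Unc93b1* fell. *Ctss* encodes cathepsin S, a protease of endosomes. Its levels were 8.26 to 8.95 in AML-conditioned, 7.84 to 8.37 in DC-conditioned and 8.07 to 8.25 in fresh medium. All AML arrays were above all fresh arrays, by 0.49 in the mean (SE 0.09, adjusted p = 0.00610), and the difference from DC-conditioned medium was 0.61 (SE 0.09, adjusted p = 0.00155). *Unc93b1*, the chaperone gene on which TLR7 traffic depends, was at 6.72 to 8.14 in AML-conditioned, 7.97 to 8.19 in DC-conditioned and 7.94 to 8.26 in fresh medium. AML replicates 4 and 5, at 6.89 and 6.72, were the lowest, and AML replicate 7, at 8.14, was the one AML array within the fresh range. The *Unc93b1* difference from fresh medium was -0.57 (SE 0.15, adjusted p = 0.0416), and -0.28 without AML replicates 4 and 5 (adjusted p = 0.157). *Lgmn*, which encodes legumain, differed by 0.39 (adjusted p = 0.0961), *Hsp90b1*, an endoplasmic reticulum chaperone of these receptors, by -0.16 (adjusted p = 0.439) and *Cnpy3*, its cofactor, by 0.00 (adjusted p = 0.997).

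Of the 5 adaptors, *Ticam2*, which encodes the TRAM adaptor of TLR4, fell by 0.50 in AML-conditioned against fresh medium (SE 0.14, adjusted p = 0.0440), to 5.09 ± 0.36, against 5.59 ± 0.31 in fresh medium (SD, n = 7 each). In replicates 1 to 3 alone *Ticam2* differed by -0.02 and in replicates 4 to 7 alone by -0.86, and it passed the test in 12 of 33 alternatives. *Myd88* differed by 0.08 (adjusted p = 0.704). Of 14 kinases and ubiquitin ligases, *Peli1*, which encodes an E3 ubiquitin ligase, rose by 0.42 (SE 0.10, adjusted p = 0.0168). *Tab2*, an adaptor of the kinase TAK1, rose by 0.21 (SE 0.05, adjusted p = 0.0403), with its AML arrays, from 8.80 to 9.05, all above its fresh arrays, from 8.63 to 8.79. *Traf6* differed by 0.01 (adjusted p = 0.976). Of 5 transcription factors *Rel*, an NF-kB subunit, rose by 0.48 (SE 0.13, adjusted p = 0.0487), while *Irf7*, which TLR7 signalling activates in plasmacytoid dendritic cells, differed by 0.29 (adjusted p = 0.414) and *Irf5* by -0.21 (adjusted p = 0.345). *Rel* passed in 10 of 33 alternatives and *Tab2* in 19. Without AML replicates 4 and 5 the *Rel* difference was 0.26 (adjusted p = 0.323).

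Of 10 negative regulators, *Socs1*, a feedback inhibitor of cytokine signalling, rose by 0.39 in AML-conditioned against fresh medium (SE 0.09, adjusted p = 0.0256). Of 11 measured genes that Toll-like receptors induce in myeloid cells, *Tnf*, which encodes tumour necrosis factor, rose by 1.24 (SE 0.26, adjusted p = 0.0117), with AML replicates 3, 6 and 7, at 8.25, 7.63 and 8.17, within the fresh range of 6.76 to 8.39. Of the other 10, none passed, and 3 had an unadjusted p under 0.05, as did 3100 of all 19505 genes. The 3 were the chemokine genes *Ccl3* at 1.16 (adjusted p = 0.130) and *Ccl4* at 0.52 (adjusted p = 0.136), and *Nfkbiz*, an NF-kB cofactor, at 0.40 (adjusted p = 0.192). The remaining 7 lay between -0.15 for *Isg15* (adjusted p = 0.658) and 0.06 for *Il1b* (adjusted p = 0.846). None of the 6 coreceptor genes passed, *Cd14* with a difference of 0.04 and *Ly96*, the TLR4 partner MD-2, with 0.03. Against DC-conditioned medium *Ctss*, *Peli1*, *Rel*, *Socs1*, *Tnf* and *Nfkbiz* rose, 6 of 59 with no fall, where 1.13% of all genes rose and 1.26% fell. In DC-conditioned against fresh medium limma called 0 of 59, with 3 at an unadjusted p under 0.05. Over all 19505 genes it called 0 there, and 1251 had such a p.

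The number of pathway calls depended on single arrays, and so did the number of calls over all genes. Without AML replicates 4 and 5, limma called 0 of 59 against fresh medium, with 13 at an unadjusted p under 0.05, and 1 of 59, *Ctss*, against DC-conditioned medium. In this setting 111 of all 19505 genes were called against fresh medium, with 2055 at an unadjusted p under 0.05. Against DC-conditioned medium 92 of all genes were called. Against fresh medium 5 pathway genes passed without DC replicate 5 or fresh replicate 5, 4 when any of fresh replicates 1 to 4 or AML replicate 3 or 4 was missing, and 3 in the absence of fresh replicate 6 or AML replicate 5. Over all genes 541 were called against fresh medium with every array. This count was 218 without AML replicate 5, 249 without AML replicate 4 and 299 without fresh replicate 2. It was 776 without AML replicate 6 and 733 without AML replicate 7. *Ctss* differed from fresh medium by 0.39 without AML replicates 4 and 5 (adjusted p = 0.0565) and from DC-conditioned medium by 0.51 (adjusted p = 0.0133).

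**Figure D4:**
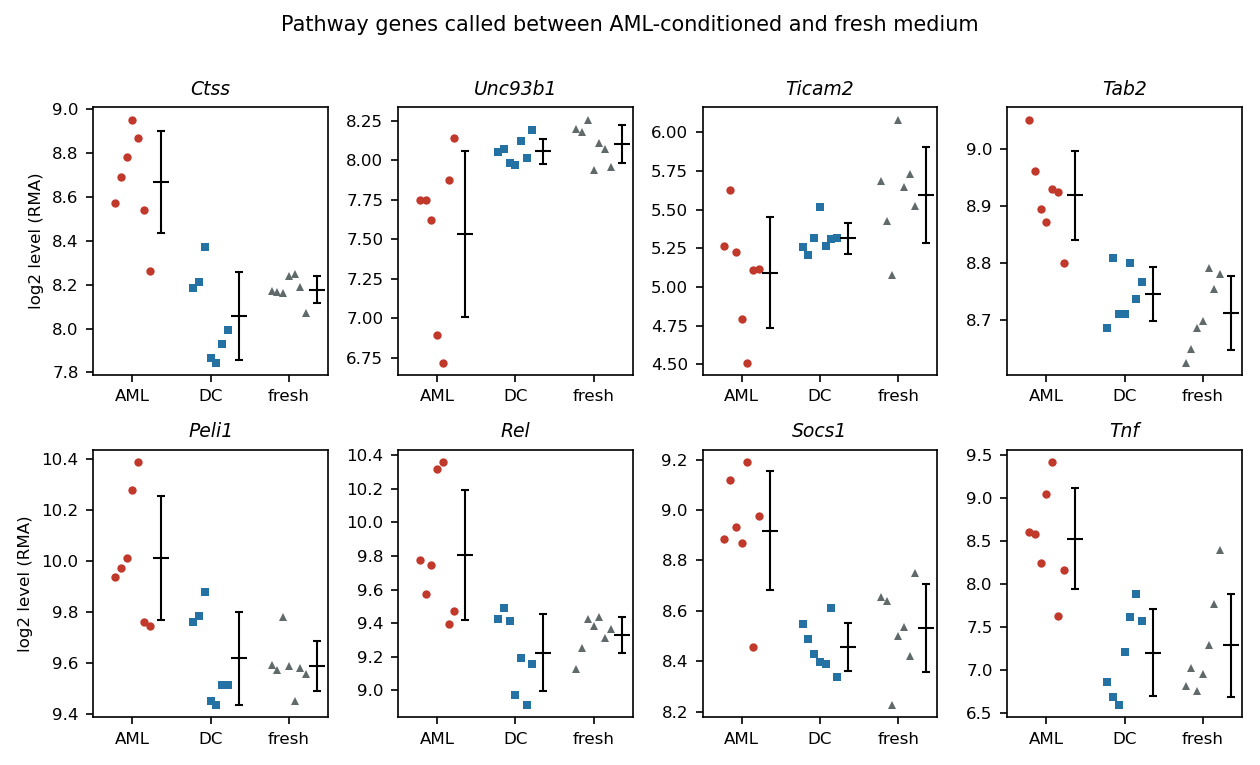
Log2 level of the 8 pathway genes called between AML-conditioned and fresh medium on every array (7 arrays per medium, points in the order of replicate number), with the mean and SD as bars; each panel has its own scale. The AML arrays of *Ctss* and *Tab2* lie above all fresh arrays, and AML replicates 4 and 5 are lowest for *Unc93b1*, at 6.89 and 6.72, and *Ticam2*.

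Of the receptors of the family outside the 8 members, *Tlr5*, *Tlr11*, *Tlr12* and *Tlr13*, none passed in any comparison. *Tlr12*, whose product recognises a profilin of parasites in mice, differed most. Its difference was -0.31 for AML-conditioned minus DC-conditioned medium (SE 0.13, adjusted p = 0.246) and -0.28 for AML-conditioned minus fresh medium (SE 0.13, adjusted p = 0.274). Of 10 other sensors, *Ifih1* and *Dhx58*, which encode the cytosolic RNA sensors MDA5 and LGP2, fell in AML-conditioned against fresh medium, and no sensor rose. Of all genes 1.3% rose and 1.48% fell in this comparison. *Ifih1* fell by 0.42 (SE 0.10, adjusted p = 0.0242). *Dhx58* fell by 0.45 (SE 0.12, adjusted p = 0.0431). Against DC-conditioned medium neither passed, *Ifih1* at -0.28 (adjusted p = 0.168) and *Dhx58* at -0.33 (adjusted p = 0.173). *Ifih1* was at 6.89 ± 0.16 after AML-conditioned medium and at 7.31 ± 0.21 in fresh medium (SD, n = 7 each). Both calls ended without AML replicates 4 and 5, at -0.41 (adjusted p = 0.110) and -0.31 (adjusted p = 0.295), without either of these arrays alone, and without fresh replicate 4 or 5. The call of *Dhx58* also ended without any other fresh array, AML replicates 1 to 3 or DC replicates 5 and 7. With each array centred on its own median neither gene passed.

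The genes whose levels followed *Tlr7* most closely over the 21 arrays were *Ski* (Pearson r of 0.94), *Aqp3* (0.92), *Skil* (0.89), *Pmepa1* (0.88), *Rtp4* (0.88), *Stat2* (0.88), *Tab2* (0.86) and *Il7r* (0.86). *Ski* and *Skil* encode SMAD corepressors, *Pmepa1* an inhibitor of TGF-beta signalling, *Aqp3* a water and glycerol channel, *Stat2* a transcription factor of interferon signalling and *Il7r* a chain of the IL-7 receptor. *Ski* was at 7.98 ± 0.10 after AML-conditioned, 7.20 ± 0.07 after DC-conditioned and 7.09 ± 0.11 in fresh medium (SD, n = 7 each). These coefficients include the difference between media and were chosen as the highest, so that they describe the arrays and carry no test. The lowest coefficients were those of *Zfp395* (-0.89), *Itga7* (-0.87), *Plcxd1* (-0.87) and *Mtch1* (-0.85).

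**Figure D5:**
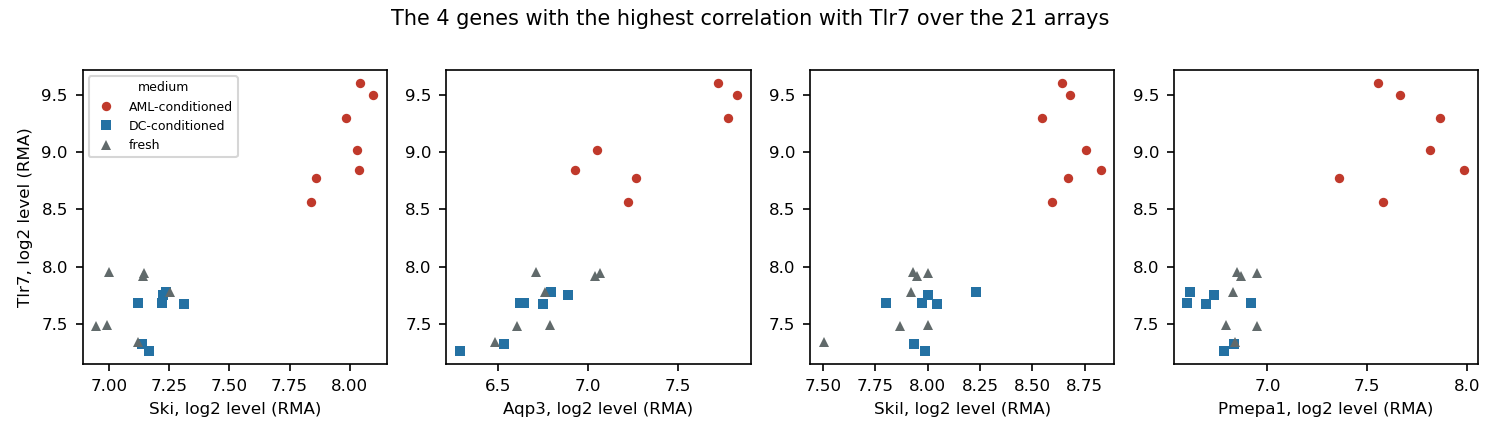
Log2 level of *Tlr7* (vertical axis) against those of *Ski*, *Aqp3*, *Skil* and *Pmepa1* (horizontal axes) on the 21 arrays in AML-conditioned (circles), DC-conditioned (squares) and fresh medium (triangles). The AML arrays form a separate cloud for *Ski*, *Skil* and *Pmepa1*, and for *Aqp3* the levels also vary with *Tlr7* within a medium.

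Within the media, as deviations from the group means over the 21 arrays, *Aqp3* had the highest r with *Tlr7*, 0.80, followed by *Thrb* (0.77), *Ctsm* (0.76), *Tmed4* (0.75) and *Mllt11* (0.74). *Ski* had 0.55 on this measure, *Skil* 0.25 and *Pmepa1* -0.01. *Aqp3* was at 7.40 ± 0.37 after AML-conditioned, 6.65 ± 0.20 after DC-conditioned and 6.78 ± 0.21 in fresh medium (SD, n = 7 each). In AML-conditioned medium it ran from 7.72 to 7.83 in replicates 1 to 3 and from 6.93 to 7.27 in replicates 4 to 7. These deviations still hold differences between the replicate sets, and the highest coefficients were chosen as such and carry no test. *Ctsm* had group means of 3.30 to 3.42, below the 25th percentile of all genes.

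Other cell types that carry Toll-like receptors were followed through their marker genes, and in such samples more RNA per cell and more cells of a type cannot be told apart. Of the 9 measured B cell markers none passed in any comparison, and their mean level per array was 4.37 to 4.66 in AML-conditioned, 4.39 to 4.64 in DC-conditioned and 4.42 to 4.81 in fresh medium. The 8 measured monocyte and macrophage markers (0 called) had mean levels of 3.70 to 3.90, 3.72 to 4.00 and 3.78 to 3.97 in AML-conditioned, DC-conditioned and fresh medium, and the 9 granulocyte and myeloid leukaemia markers (0 called) 4.00 to 4.19, 3.99 to 4.14 and 4.06 to 4.29. Among the defining markers of these lists, *Cd79a*, *Ms4a1*, *Csf1r*, *Lyz2* and *S100a8* were at 4.72 or lower on every array. Single values of the defining markers *Adgre1*, *Mpo* and *Elane* are not given here. Of 8 conventional dendritic cell markers *H2-Ab1*, an MHC class II chain, fell by 1.33 against fresh medium (SE 0.30, adjusted p = 0.0168). The other 7 did not pass, and the median difference of the 8 from fresh medium was 0.04. The mean of these 8 per array was 4.35 to 4.75 in AML-conditioned, 4.56 to 4.85 in DC-conditioned and 4.44 to 4.84 in fresh medium. Of 7 plasmacytoid dendritic cell markers *Cox6a2*, a cytochrome oxidase subunit, rose by 0.85 against DC-conditioned medium (SE 0.21, adjusted p = 0.0247), and the list mean ran from 6.13 to 6.94 in AML-conditioned, 6.10 to 6.29 in DC-conditioned and 6.09 to 6.37 in fresh medium. *Siglech*, a defining marker of these cells, did not pass, at 3.61 ± 0.14 after AML-conditioned, 3.38 ± 0.13 after DC-conditioned and 3.46 ± 0.24 in fresh medium (SD, n = 7 each). Of 3 measured CD4 T cell markers *Cd4*, the coreceptor of helper T cells, rose against fresh medium by 0.79 (SE 0.18, adjusted p = 0.0150). All 3 had an unadjusted limma p under 0.05 against fresh and against DC-conditioned medium, with median differences of 0.31 and 0.35. Of all 19505 genes 3100 and 2782 had such a p in these comparisons. The mean level of the 3 markers per array was 6.39 to 6.99 in AML-conditioned, 6.17 to 6.75 in DC-conditioned and 6.02 to 6.56 in fresh medium. Of 3 measured NK cell markers *Eomes*, also expressed in CD8+ T cells, rose against fresh medium by 0.71 (SE 0.14, adjusted p = 0.00844). Of all genes 1.3% rose and 1.48% fell against fresh medium, and 1.13% rose and 1.26% fell against DC-conditioned medium. Without AML replicates 4 and 5, *H2-Ab1* differed from fresh medium by -0.82 (adjusted p = 0.0985), *Cd4* by 0.81 (adjusted p = 0.0622) and *Eomes* by 0.50 (adjusted p = 0.0705), and *Cox6a2* from DC-conditioned medium by 0.47 (adjusted p = 0.128), none of which passed. *Eomes* still passed against DC-conditioned medium, at 0.59 (adjusted p = 0.0345). The part of these cells in the *Tlr7* and *Tlr6* values was not tested. *Tlr7* lies on the X chromosome, and the 3 measured Y-linked genes ran from 2.23 to 3.53 over all arrays with no call in any comparison.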

How the data were processed

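Mouse CD8+ T cell RNA was measured on 21 1-colour Affymetrix arrays. The deposited values are log2 levels per transcript cluster, for which the submitters' processing notes name RMA and oligo without a version. Background correction, quantile normalization and the summary of probes into clusters are therefore steps of the authors. Arrays were grouped by their titles. Of 22203 transcript clusters, 19572 had 1 symbol, and the row with the highest mean was kept for each of 19505 genes, without a filter on level. Symbols were checked against a gene table of GRCm38.p6.

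Media were compared by limma 3.58.1 (R 4.3.3, lmFit and eBayes, all 21 arrays in 1 fit, no covariates). P-values were adjusted over all genes (Benjamini-Hochberg, two-sided), with calls at an adjusted p under 0.05. The fit was tested on simulated data. The number of arrays limits the precision.

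The members, the gene lists and the replicate sets were chosen with earlier results of these data known. Named genes were the 8 members, called pathway genes (up to 4 per role, otherwise the largest differences), defining markers, and genes by their r with *Tlr7*. Only some of the defining markers are given, among them *Eomes* but not the other NK cell markers *Ncr1* and *Klrb1c*. Genes named outside this rule, among them *Lgmn*, *Hsp90b1*, *Cnpy3*, *Myd88*, *Traf6*, *Irf5*, *Irf7*, *Ccl3*, *Ccl4*, *Il1b*, *Isg15*, *Cd14*, *Ly96* and *H2-Ab1*, were chosen after their values were seen. Alternatives were other normalizations, filters, variance models, blocks and arrays left out.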

Additional observations from a re-analysis of the deposited data

Results flagged for a closer look

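*Tlr7* in DC-conditioned and fresh medium differed in opposite directions in the 2 sets of replicates. DC-conditioned minus fresh medium was 0.30 in replicates 1 to 3, with 7.68 to 7.78 in DC-conditioned and 7.34 to 7.49 in fresh medium, and -0.41 in replicates 4 to 7, with 7.27 to 7.69 in DC-conditioned and 7.78 to 7.96 in fresh medium. The arrays did not overlap within either set, and the difference between the sets was not tested. Of 24 groups of arrays examined for a single distant array (8 genes in 3 media), 2 held one, where chance gives about 1 in 20 groups. *Tlr4* in DC replicate 2 was at 3.36, above the other DC arrays, and *Tlr9* in AML replicate 5 was at 3.62, below the other AML arrays.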

How the results depend on the processing

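Under 33 alternatives the *Tlr7* difference ran from 0.90 to 2.02 against fresh medium and from 1.31 to 1.73 against DC-conditioned medium. The counts of called receptors include *Tlr7*, for which the family was taken up, and its part in them supports nothing. They were 1 against fresh medium and 0 for DC-conditioned against fresh medium throughout, and 2 against DC-conditioned medium except for 1, *Tlr7*, without AML replicates 4 and 5, in replicates 1 to 3 alone and in replicates 4 to 7 alone. There *Tlr6* did not pass, at -0.47, -0.48 and -0.60. Among the 59 pathway genes 8 passed against fresh medium, and 5 with array weights, 3 with only the 2 groups, 0 without AML replicates 4 and 5, 4 in replicates 1 to 3 alone, 1 in replicates 4 to 7 alone and 3 to 9 with 1 array left out. Over all 19505 genes these counts were, in the same order, 541, 416, 246, 111, 374, 32 and 218 to 776. Against DC-conditioned medium 6 pathway genes passed, and 1 without AML replicates 4 and 5, in replicates 1 to 3 alone and in replicates 4 to 7 alone, with 4 to 8 when 1 array was left out. Over all genes these counts were 466, then 92, 318 and 43, and 220 to 784. Several of these settings hold fewer arrays, and the cause of the changes in count was not tested.

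Replicate numbers were not treated as pairs, because not every same-numbered pair of arrays had deviations with a correlation over 0.1 (13 of 21, median 0.17). Differently numbered arrays within replicates 1 to 3 or 4 to 7 had a median of 0.13 (30 of 54 over 0.1), and arrays of different sets -0.15 (2 of 72). The reported fit has no term for these sets. With them as a block 10 pathway genes passed against fresh medium and 8 against DC-conditioned medium, with 1026 and 797 calls over all genes. A replicate block left 1 receptor called against fresh medium, 0 for DC-conditioned against fresh medium and 2 against DC-conditioned medium, and 9, 0 and 9 pathway genes did. Over all genes the block gave 1012 calls, against 541 without it, for AML-conditioned minus fresh medium and 784, against 466, for AML-conditioned minus DC-conditioned medium. Without AML replicates 4 and 5 these counts were 111 and 92. After median centring of the arrays 289 genes were called higher and 197 lower against fresh medium, and on the deposited scale 253 and 288. *Tlr3*, *Tlr4* and *Tlr8* had no value under the filter at the 25th percentile.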
